A study of Piaractus mesopotamicus with 9 samples.

Results

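The small RNA sequencing of pacu (Piaractus mesopotamicus) myotubes detected both strands of miR-338, and these strands are described here. Their entries were chosen by name: every reference entry of the normalised table whose name, without the species prefix, is miR-338 with any letter, copy or arm. A total of 17 of 1769 entries met the rule. Where several entries had the same values in each of the 9 libraries, they made up 1 distinct profile. The 17 entries formed 5 of the 953 distinct profiles, with 2 profiles of the 5p arm and 3 of the 3p arm. Myotubes are the fused, elongated muscle cells that form in culture from myoblasts, and these came from the fast-twitch muscle of juvenile fish. All cultures were grown to day 8 and then moved to a medium without amino acids. The control (CTR) stayed in this medium for 36 h, the AA group was deprived for 12 h and then given an amino acid medium for 24 h, and the IGF1 group was deprived for 12 h and then given recombinant insulin-like growth factor 1, with no amino acids, for 24 h. The sample characteristics give 12 h for both treatments instead. The amino acid medium was DMEM, whose salts and vitamins differ from those of the deprivation medium, so these differences cannot be told apart from the amino acids. Each group had 3 libraries. Each culture pooled muscle from many fish, and the labels do not say which of the study's independent cultures gave which library, so p-values measure the spread between these libraries.

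A miRNA gene is transcribed as a hairpin, and the enzymes Drosha and Dicer cut it to a short duplex. Its 5p strand comes from the 5′ side of the hairpin and its 3p strand from the 3′ side. Either strand can be loaded into an Argonaute protein, where it pairs with target mRNAs through its seed, the bases near its 5′ end. Where both strands come from the same precursor, a change of transcription moves them together, while strand choice or the decay of a mature strand can move them apart. The reference names include numbered copies of miR-338, so the 5p and 3p profiles here need not share a precursor, which was not tested. In mammals the miR-338 hairpin lies in an intron of AATK, a kinase gene active in neurons, and miR-338 is best known there, with miR-219, for the maturation of oligodendrocytes, the myelin-forming cells of the brain. The study picked miR-338-5p for follow-up from these same libraries, so a test of it here is not independent of that choice. The follow-up by qPCR in myotubes and fish muscle was a further measurement and is not examined here.

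Counts over the zebrafish entries ran from 7627252 to 12908097 per library, and dre-miR-21 took 48.5% to 57.1% of them. The markers of muscle (miR-206, miR-1, miR-499 and miR-133) were detected without exception, yet took only 0.0439% to 0.0683% of the zebrafish counts in CTR, 0.194% to 0.276% in AA and 0.0757% to 0.0851% in IGF1. Of the 4 blood markers, miR-142, miR-144 and miR-223 stayed below a mean of 10 counts, as did the glial marker miR-219. The other blood marker, miR-451, reached that mean. The endothelial marker miR-126 did too, at 0.0130% to 0.0242% of the zebrafish counts with overlapping groups. Of the epithelial markers, miR-203 reached it and miR-200 and miR-205 did not. The fibroblast and mesenchyme list (miR-143, miR-145, miR-199 and miR-214) took 5.95% to 7.97% with overlapping groups. In bulk RNA, fewer cells of a type and less RNA per cell cannot be told apart.

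The entries carry the prefix of the species whose sequence served as reference (dre, zebrafish; ssa, Atlantic salmon; ola, medaka; gmo, Atlantic cod). The 5p arm held dre-miR-338-5p, which had the same counts as ssa-miR-338a-3-5p, and ssa-miR-338a-5p. The 3p arm held dre-miR-338-3p, dre-miR-338 and ola-miR-338-3p. The profile of dre-miR-338 stood for 12 entries of 12 species, of which 10 name no arm and were placed in the 3p arm because their counts equal those of gmo-miR-338-3p and ssa-miR-338a-3p. Profiles of an arm are not independent, as the same reads can match more than 1 reference. ola-miR-338-3p held 87.8% to 94.8% as many counts as dre-miR-338 in the 9 libraries, and the log2 values of these profiles had a Pearson correlation of 0.996 and a Spearman correlation of 0.983 (n = 9).

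A further 5 entries of the raw table fell below the mean of 10 counts and are all of the 5p arm. The cod entries gmo-miR-338-5p, gmo-miR-338-2-5p and gmo-miR-338-3-5p had 0 counts in all 9 libraries, which allows up to 0.232 to 0.393 CPM (counts scaled to the zebrafish total) in a library (3 counts, counting error only). ola-miR-338-5p and ssa-miR-338a-4-5p each had 2 counts in all, 1 in CTR replicate 1 and 1 in IGF1 replicate 1. The 5p reads of pacu were therefore assigned to the dre-miR-338-5p and ssa-miR-338a-5p references, at 4.55 to 20.5 CPM on the same scale.

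miR-338 had few counts in these libraries, and its 3p arm had more than its 5p arm. Mature miRNAs are of nearly equal length, but adapter ligation and matching to references of other species can differ by sequence, so the order below is one of counts and the molecules present were not tested. dre-miR-338-3p had a mean of 439 counts per library, at rank 608 of 953 profiles. dre-miR-338 (221 counts, rank 677), ola-miR-338-3p (201 counts, rank 690) and dre-miR-338-5p (163 counts, rank 705) followed. ssa-miR-338a-5p had 72.6 counts and rank 782. All 5 lay in the lower part of the table by counts, with 17.9% to 36.2% of the profiles below them. The order by group mean was the same in CTR, AA and IGF1, except that dre-miR-338-5p (195 normalised counts) lay above ola-miR-338-3p (187) in IGF1, a gap far smaller than their SDs of 38.8 and 50.4.

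dre-miR-338-5p, the 5p profile with the higher count, was higher in both treatments than in CTR. In CTR it had normalised counts of 105, 114 and 118 in replicates 1, 2 and 3. In AA it had 137, 214 and 178. In IGF1 it had 184, 163 and 238. Every AA and every IGF1 library thus lay above every CTR library, a pattern that 7.24% of the 953 profiles showed for AA and 6.93% for IGF1, while the treatments overlapped each other. The CTR mean was 112 ± 6.88, the AA mean 176 ± 38.7 and the IGF1 mean 195 ± 38.8 (SD, n = 3). The raw counts behind them ran from 82 to 124 in CTR, from 164 to 200 in AA and from 162 to 235 in IGF1. The CTR libraries differed by less than counting error alone would give, with a coefficient of variation of 6.12% against 9.76%. In AA (22.0% against 7.38%) and IGF1 (19.9% against 7.08%) the spread exceeded it.

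**Figure D1:**
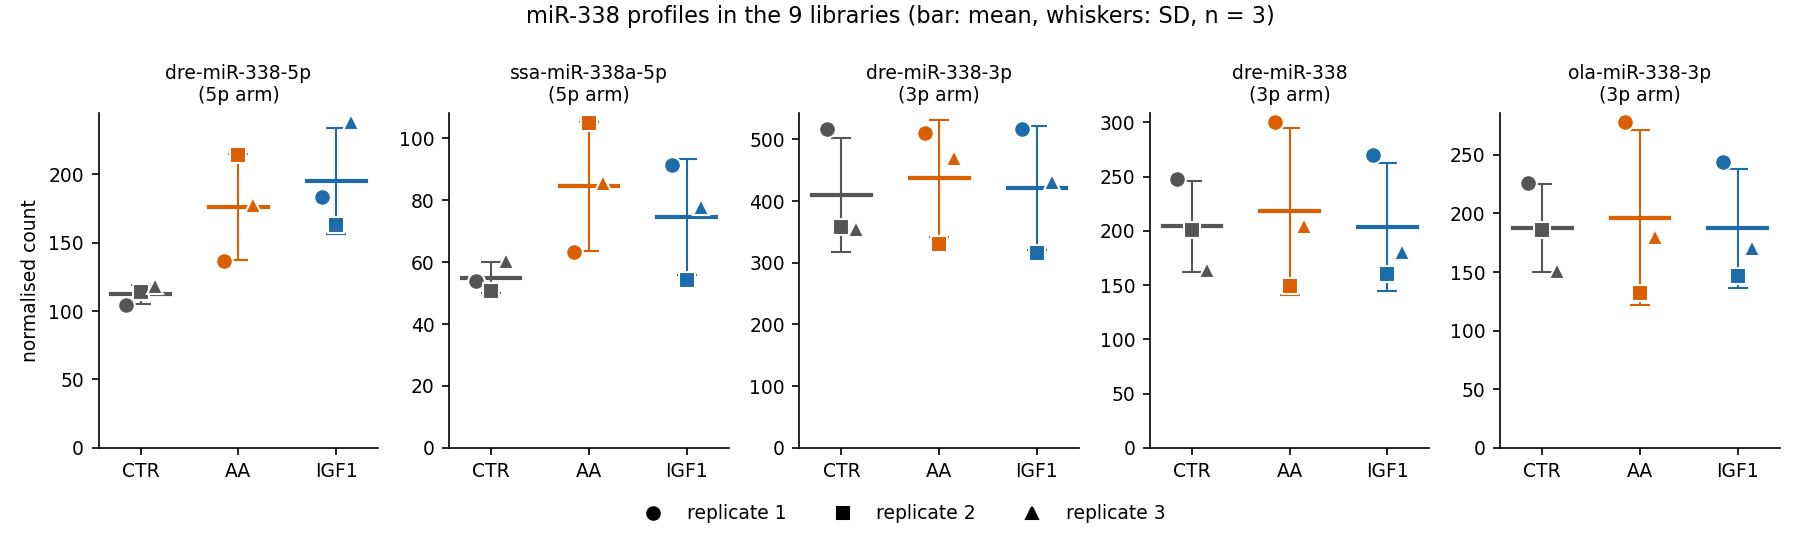
Normalised counts (y axis, from 0) of the 5 miR-338 profiles in CTR, AA and IGF1, with 1 point per library, its shape giving the replicate number, bars at the mean and whiskers of 1 SD (n = 3). The 5p profile dre-miR-338-5p sits at 105 to 118 in CTR and at 137 to 238 in the treated libraries, while in the 3p profiles the groups overlap and replicate 1 is the highest library of every group.

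The tests asked whether these differences exceed the spread between libraries. edgeR's quasi-likelihood test over all 1769 entries called a profile if p, adjusted by the Benjamini-Hochberg method, was 0.05 or less and the log2 fold change was 0.55 or more in size. For IGF1 against CTR, dre-miR-338-5p had a log2 fold change of 0.78 (SE 0.21, 95% interval 0.33 to 1.24, adjusted p = 0.16), a fold of 1.72 (1.26 to 2.36), and was not called. For AA against CTR it had a log2 fold change of 0.64 (SE 0.21, 95% interval 0.19 to 1.10, adjusted p = 0.199), a fold of 1.56, and was not called either. With the replicate number as a block it was called in IGF1 (log2 fold change 0.78, SE 0.17, adjusted p = 0.0187) and in AA (0.63, SE 0.17, adjusted p = 0.0312). The call for AA was lost when the blocked model was fitted to distinct profiles (adjusted p = 0.072), and that for IGF1 was not (adjusted p = 0.036). DESeq2, which the study used, called it in IGF1 (adjusted p = 0.0287) and not in AA (adjusted p = 0.0874). DESeq2 with the block called it in both IGF1 (adjusted p = 0.00338) and AA (adjusted p = 0.0237). This fit and the blocked fit to distinct profiles were added after seeing the data. Whether dre-miR-338-5p was called thus depended on the test, while the log2 fold changes of these fits lay within 0.63 to 0.65 for AA and 0.76 to 0.79 for IGF1. The summed share of the muscle markers was also above CTR in both treatments, as given before. That of the nervous system markers (miR-124, miR-9 and miR-219) was 0.00149% to 0.00158% in CTR, 0.00183% to 0.00218% in AA and 0.00108% to 0.00215% in IGF1, so that AA lay above CTR and IGF1 overlapped both. The liver marker miR-122 likewise lay above CTR (0.000552% to 0.00132%) in AA (0.00147% to 0.00202%) and overlapped in IGF1. These shares were not corrected for library composition. Without such a correction the median profile had a log2 fold change of 0.16 in AA against CTR. With it, edgeR gave the tested miR-9 and miR-124 profiles log2 fold changes of -0.069 to 0.74 in AA, none called. Among single profiles on the normalised scale, 7.24% had every AA library above every CTR library. The part of the markers in the difference of dre-miR-338-5p was not tested.

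AA and IGF1 did not differ detectably in dre-miR-338-5p, with a log2 fold change of -0.14 for AA against IGF1 (SE 0.20, adjusted p = 0.787). The 95% interval of -0.59 to 0.30 spans a fold from 0.666 to 1.23, so a moderate difference between the treatments in either direction was not excluded with these libraries.

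ssa-miR-338a-5p, the 5p profile with the lower count, was at 53.8, 50.7 and 60.5 normalised counts in CTR replicates 1, 2 and 3. In AA it had 63.2, 105 and 85.6. In IGF1 it had 91.4, 54.3 and 77.8. All AA libraries lay above CTR, as in 7.24% of all profiles, by a narrow gap between 60.5 and 63.2, whereas IGF1 replicate 2 lay inside the CTR range. The log2 fold change was 0.61 in AA (SE 0.25, 95% interval 0.064 to 1.16, adjusted p = 0.39) and 0.44 in IGF1 (SE 0.25, 95% interval -0.11 to 0.99, adjusted p = 0.953). It was not called, and the replicate block did not change that (adjusted p = 0.165 in AA and 0.427 in IGF1). With 42 to 117 raw counts in a library, the profile had a counting error of 10.7% to 14.0% of its group means.

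The 5p profiles moved alike over the libraries, with a Pearson correlation of 0.801 and a Spearman correlation of 0.833 on the log2 scale (n = 9), and 0.746 after the group means were removed. They can share reads, so this is a description. The ratio of dre-miR-338-5p to ssa-miR-338a-5p averaged 2.05 ± 0.176 over the CTR, 2.09 ± 0.0628 over the AA and 2.69 ± 0.591 over the IGF1 libraries (SD, n = 3). IGF1 replicates 2 and 3 had the highest ratios, at 3.00 and 3.06, and IGF1 replicate 1 had 2.01, inside the CTR range of 1.95 to 2.25. The log2 ratio was higher in IGF1 than in CTR by 0.37, with overlapping groups (exact two-sided permutation test over 20 splits, p = 0.2, adjusted p = 0.84 over 6 tests of ratios within an arm). The smallest p that 20 splits allow is 0.1, so no such test could pass 0.05.

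In the 3p arm the groups overlapped in all 3 profiles and none was called. Most profiles of the table were alike in this. Only 7.24% had every AA library above every CTR library and 6.93% every IGF1 library, and edgeR called 2.2% and 0.105% higher. dre-miR-338-3p had normalised counts of 517, 357 and 356 in CTR replicates 1, 2 and 3. In AA it had 511, 329.8 and 470.2. In IGF1 it had 517, 316 and 430.2. The groups overlapped almost fully, with means of 409.9 ± 92.5, 437 ± 95.01 and 421 ± 101 (SD, n = 3). The log2 fold change was 0.093 in AA (SE 0.24, 95% interval -0.43 to 0.62, adjusted p = 0.929) and 0.026 in IGF1 (SE 0.24, 95% interval -0.50 to 0.55, adjusted p = 0.996). The interval for IGF1 spans a fold from 0.707 to 1.47. With the replicate block it narrowed to -0.27 to 0.30, so a log2 change as large as the 0.78 of dre-miR-338-5p lay outside it in both fits. In AA the upper bound of 0.62 lay just below the 0.64 of dre-miR-338-5p. Both values of dre-miR-338-5p are estimates, with 95% intervals of 0.33 to 1.24 in IGF1 and 0.19 to 1.10 in AA. Setting them against these bounds does not test a difference between the arms.

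dre-miR-338, whose counts are shared by the entries of 12 species, had 248, 201 and 164 normalised counts in CTR replicates 1, 2 and 3. It had 301, 149 and 205 in AA, and 270.3, 160.0 and 180.3 in IGF1. ola-miR-338-3p followed it closely, from 151 to 226 in CTR, from 132 to 278 in AA and from 147 to 244 in IGF1. Their log2 fold changes were 0.10 and 0.073 in AA and -0.016 and -0.015 in IGF1, each smaller than its SE of 0.29 to 0.30. Their 95% intervals in AA, -0.54 to 0.74 and -0.58 to 0.73, contained the 0.64 of dre-miR-338-5p, so a difference of that size was not excluded in these profiles without the block. The ratio of dre-miR-338-3p to dre-miR-338 was 2.01 ± 0.204 in CTR, 2.07 ± 0.324 in AA and 2.09 ± 0.257 in IGF1, and the differences between group means were smaller than these SDs (exact permutation tests, adjusted p of 0.84 to 0.9 over the same 6 tests, which could not pass 0.05).

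Counted over the arms, edgeR called 0 of the 5 profiles in AA against CTR, where 2.2% of all profiles were called higher, and 2 had an unadjusted p under 0.05, against 6.3% of all profiles. In IGF1 against CTR it called 0, against a background of 0.105% called higher, and 1 had an unadjusted p under 0.05, against 7.66%. In AA against IGF1 it called 0, where 2.1% were called in either direction, and 0 had an unadjusted p under 0.05, against 9.55%. The replicate block called 1 of 5 higher in AA (background 3.36%) and 1 in IGF1 (background 1.05%). DESeq2 called 0 in AA (background 2.73%) and 1 in IGF1 (background 0.944%). The called profile was dre-miR-338-5p each time. In AA against IGF1 the replicate block called 0 (background 4.83% in either direction) and DESeq2 0 (background 2.94%). The median log2 fold change of the 5p profiles was 0.63 in AA and 0.61 in IGF1, and that of the 3p profiles 0.093 and -0.015, beside -0.042 and 0.018 over all 953 profiles. AA and IGF1 share the CTR libraries, so these values are not independent of each other. In IGF1 against CTR, 98.6% of all profiles had a smaller log2 fold change than dre-miR-338-5p, and in AA against CTR 96.0%.

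**Figure D2:**
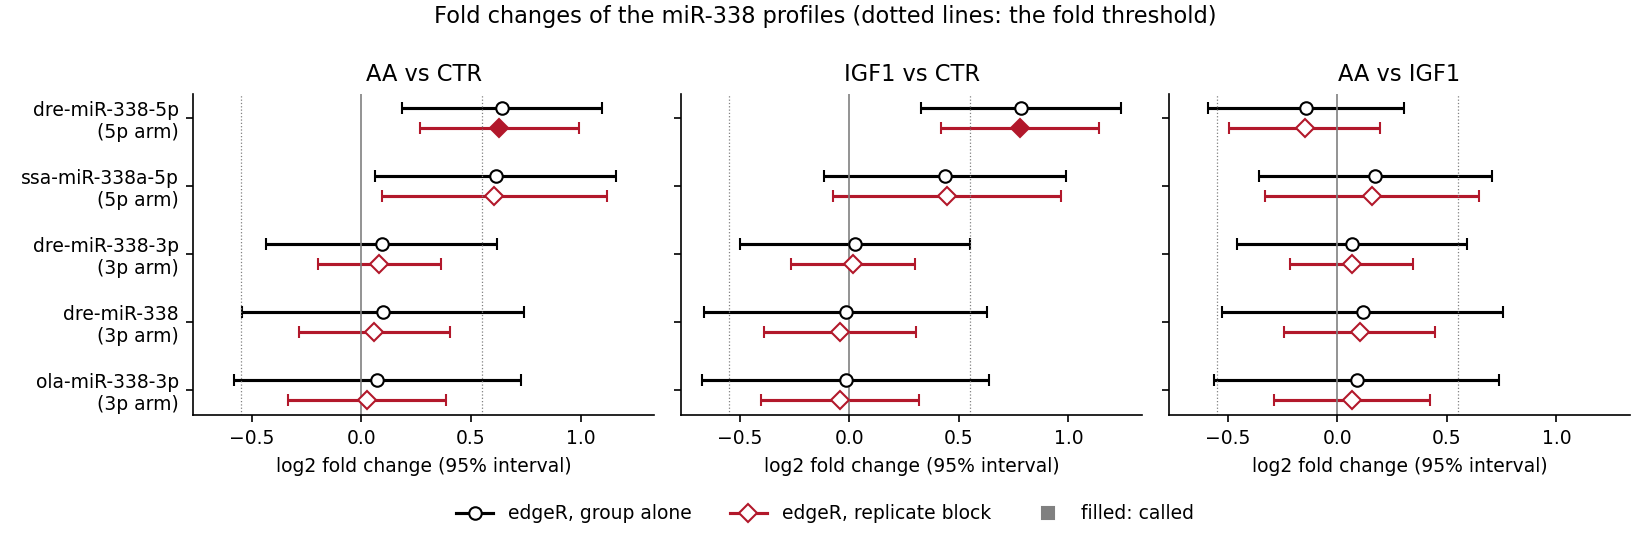
Log2 fold changes (x axis) of the 5 profiles with 95% intervals in the 3 comparisons, from edgeR with the group alone (circles) and with the replicate block (diamonds); filled symbols were called. dre-miR-338-5p is at 0.64 in AA and 0.78 in IGF1 against CTR and is filled only with the block, and the 3p profiles lie near 0.

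The arms also differed in how their values were spread over the libraries. Libraries of different groups with the same replicate number deviated together across the table, and the 3p arm followed this number. Replicate 1 held the highest value of each 3p profile in CTR, AA and IGF1. Replicate 2 held the lowest in AA and IGF1, and replicate 3 in CTR. For dre-miR-338-5p the highest library was replicate 3 in CTR and IGF1 and replicate 2 in AA. The group held 72.7% of the sum of squares of dre-miR-338-5p on the log2 scale and the replicate number 10.5%. For ssa-miR-338a-5p the shares were 48.1% and 3.62%. For dre-miR-338-3p they were 1.83% and 85.2%, for dre-miR-338 0.947% and 81.1%, and for ola-miR-338-3p 0.181% and 79.8%. The medians over all 953 profiles were 25.2% for the group and 49.3% for the replicate number. Only 12.3% of the profiles had a smaller replicate share than dre-miR-338-5p, and 95.8% had a smaller replicate share than dre-miR-338-3p. These shares are descriptions, as they were not tested.

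**Figure D3:**
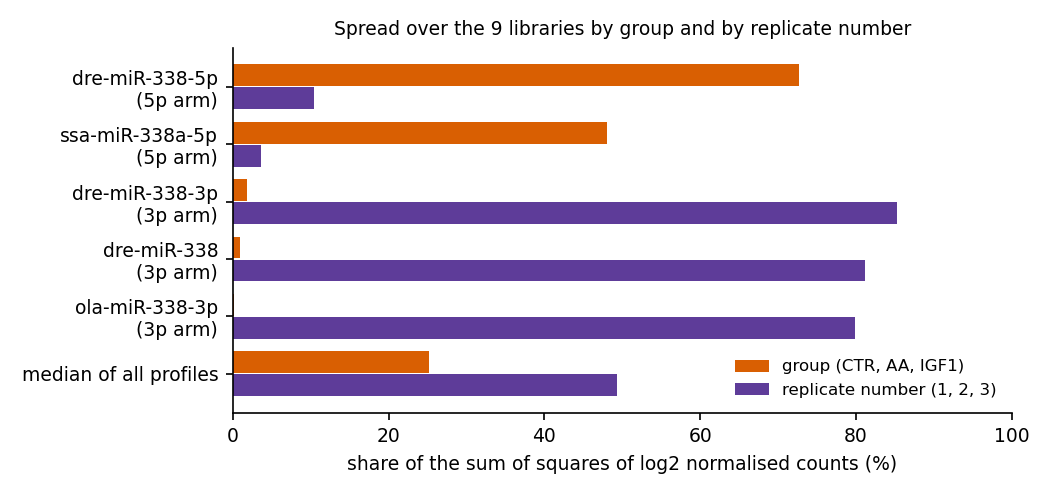
Share of the sum of squares over the 9 libraries (x axis, percent, log2 normalised counts) that lay between groups and between replicate numbers, for the 5 profiles and as the median of all 953. The 5p profiles have the longer group bars (72.7% and 48.1%) and the 3p profiles the longer replicate bars (79.8% to 85.2%).

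The ratio of the arms within a library does not depend on a size factor, and was used to ask whether the 5p arm differed from the 3p arm. The counts of dre-miR-338-5p were divided by those of dre-miR-338-3p. The ratio was 0.203, 0.320 and 0.332 in CTR replicates 1, 2 and 3. It was 0.268, 0.649 and 0.378 in AA, and 0.355, 0.516 and 0.553 in IGF1. dre-miR-338-3p thus had a higher count than dre-miR-338-5p in all 9 libraries. dre-miR-338, another 3p profile, had fewer raw counts than dre-miR-338-5p in AA replicate 2 (139 against 200). The same held in IGF1 replicate 2 (159 against 162) and replicate 3 (153 against 202). ola-miR-338-3p also lay below dre-miR-338-5p in these libraries, and both lay above it in the others. Every IGF1 library lay above every CTR library, and the AA range of 0.268 to 0.649 overlapped both. The mean log2 ratio (0.5 added to each count) was -1.84 ± 0.396 for CTR, -1.31 ± 0.644 for AA and -1.10 ± 0.344 for IGF1 (SD, n = 3). It was higher in IGF1 than in CTR by 0.74, a ratio of 1.67 (exact two-sided permutation test over 20 splits, p = 0.1, the smallest possible; adjusted p = 0.3 over 3 comparisons). It was higher in AA than in CTR by 0.53 (exact permutation p = 0.4, adjusted p = 0.6) and lower in AA than in IGF1 (log2 difference -0.21, exact permutation p = 0.7, adjusted p = 0.7). Libraries with the same number went up from CTR in 3 of 3 pairs for both treatments (exact sign permutation within pairs, p = 0.25, the smallest possible).

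Over the 3 groups together, 39.0% of the sum of squares of the log2 ratio lay between groups and 48.8% between replicate numbers. The share between groups was not unusual among all 280 regroupings of the libraries (exact one-sided permutation test, p = 0.225). With the replicate means removed and groups permuted within numbers, p was 0.0833 (exact permutation over 216 arrangements, smallest possible 0.0278). A difference between the arms in their response was therefore not established with these libraries. Of the 40 zebrafish miRNAs with both arms tested, 10% had a 5p to 3p ratio that was higher in every IGF1 library than in every CTR library, and 5% had one for AA. The log2 difference between IGF1 and CTR in the ratio of dre-miR-338-5p to dre-miR-338-3p was exceeded by 2 of the other miRNAs, within a range of -0.45 to 0.92 and a median of 0.020.

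**Figure D4:**
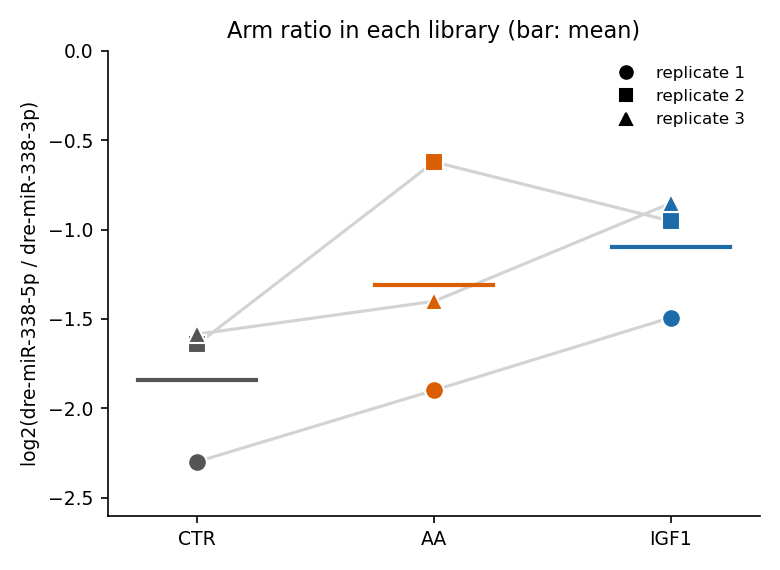
Log2 ratio of dre-miR-338-5p to dre-miR-338-3p counts (y axis) in each library, with bars at the group means and grey lines joining libraries that carry the same replicate number. The IGF1 libraries lie at -1.49 to -0.85 and the CTR libraries at -2.30 to -1.58, with AA spread over both, and each line is higher at AA and at IGF1 than at CTR.

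The profiles of other miRNAs most like dre-miR-338-5p were sought over the 9 libraries by Pearson correlation of log2 normalised counts. Among 948 profiles the closest was dre-miR-30a-3p, with a Pearson correlation of 0.944 and a Spearman correlation of 0.967. Its normalised counts averaged 52.5 ± 9.81 for CTR, 77.9 ± 12.3 for AA and 90.9 ± 13.3 for IGF1 (SD, n = 3), with a log2 fold change of 0.79 in IGF1 (adjusted p = 0.172) and 0.57 in AA (adjusted p = 0.318). ssa-let-7j-3p (0.921), gmo-miR-148-5p (0.881), ssa-miR-148a-5p (0.880) and ssa-let-7a-3-3p (0.876) followed. None of the 5 was called by edgeR in AA or IGF1 against CTR, where 2.2% and 0.105% of all profiles were called higher. A count of 0 of 5 is thus near the background. The log2 fold changes of the 5 in IGF1 ran from 0.30 to 0.79. The libraries share their groups and replicate numbers, so these correlations are descriptions.

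The profiles most like dre-miR-338-3p were others. They were ipu-miR-551 (Pearson correlation 0.911), abu-miR-132-5p (0.908), gmo-miR-150-5p (0.901), gmo-miR-190a-2-5p (0.870) and gmo-miR-214-5p (0.868). abu-miR-132-5p had mean normalised counts of 147 ± 36.6 for CTR, 137 ± 33.0 for AA and 147 ± 34.6 for IGF1, so its libraries differed within groups and hardly between them. After the group means were removed the correlations with dre-miR-338-3p were 0.872 to 0.954 over the 5. The group held only 1.83% of the sum of squares of dre-miR-338-3p. Profiles chosen for likeness to it were therefore bound to share its deviations within groups. dre-miR-338-3p and dre-miR-338-5p themselves had a Pearson correlation of -0.090 and a Spearman correlation of -0.12. Without the 2 libraries farthest from the median of dre-miR-338-3p their Pearson correlation was 0.24. After the group means were removed their Pearson correlation was -0.32. It was -0.61 between dre-miR-338-5p and each of dre-miR-338 and ola-miR-338-3p, which are not independent of each other. With the group means kept, these pairs had Pearson correlations of -0.31 and -0.32. Without the 2 libraries farthest from the median of the 3p profile they had -0.090 and -0.084. Between ssa-miR-338a-5p and the 3p profiles the Pearson correlation after removal of the group means ran from -0.24 to 0.059. These values are descriptions too.

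Other miRNAs of the nervous system were described beside miR-338, since that is where its partners are known. The list held miR-9, miR-124, miR-128, miR-137, miR-138 and miR-219. miR-219, the partner of miR-338 in mammalian oligodendrocytes, was at or near 0: none of its 31 entries was tested, and the largest had 13 counts over all libraries. The other miRNAs of the list gave 14 tested profiles, of which miR-128 gave 7 and miR-124 gave 3. Profiles of the same miRNA can share reads, so the 14 are not independent. edgeR called 0 of them in AA against CTR (1 with an unadjusted p under 0.05), 0 in IGF1 against CTR (2) and 0 between the treatments (1), and neither DESeq2 nor the replicate block called any. Over all profiles 2.2%, 0.105% and 2.1% were called in these comparisons (higher only against CTR) and 6.3%, 7.66% and 9.55% had such a p, so counts of 0 called and 1 or 2 with such a p are near the background for 14 profiles. Their median log2 fold change was 0.047 in AA and 0.15 in IGF1, with 7 and 10 of 14 above 0. All 7 profiles of miR-128 were among the 10 in IGF1, so these values rest largely on 1 miRNA. dre-miR-138-5p, also known from oligodendrocytes, had a median normalised count of 118 for CTR (89.2 to 139), 110.3 for AA (109 to 127) and 102 for IGF1 (85.5 to 138). Its groups overlapped, with log2 fold changes of -0.0044 (SE 0.23) in AA and -0.11 (SE 0.23) in IGF1. Of the 15 profiles of the muscle markers, edgeR called 14 higher in AA and 1 in IGF1, with median log2 fold changes of 2.04 and 0.24. The 5p profiles of miR-338 had medians of 0.63 and 0.61, but only 2 profiles made these up and they differed in order. dre-miR-338-5p had 0.64 in AA and 0.78 in IGF1, and ssa-miR-338a-5p had 0.61 and 0.44.

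**Figure D5:**
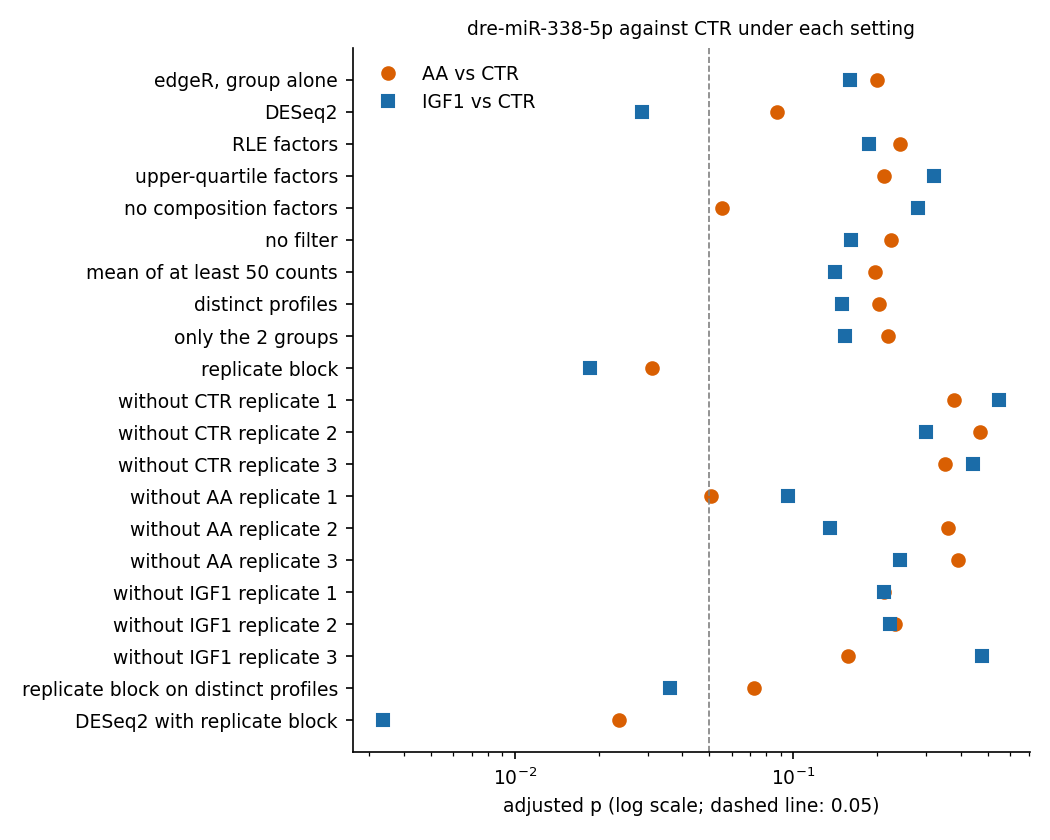
Adjusted p (x axis, log scale, dashed line at 0.05) of dre-miR-338-5p for AA (circles) and IGF1 (squares) against CTR under edgeR with the group alone and each alternative, including each library left out in turn. Only DESeq2 and fits with the replicate block lie left of the line for IGF1, and only the replicate block over all entries and DESeq2 with the block for AA.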

How the data were processed

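Small RNA libraries of CTR, AA and IGF1 myotubes (3 each) were grouped by their sample titles. The authors checked reads with FastQC 0.11.8, trimmed them with Trimmomatic, filtered them by length and mapped them with Bowtie2 to mature miRNAs of 13 teleosts in miRBase, and deposited raw counts per entry. The sources used here do not give the rule for reads matching several entries. Each library held more counts than the study gives reads for its whole group, so reads were counted at several entries. Counts over all entries were 10.7 times those over the zebrafish entries. The deposited normalised counts are a signal that the authors made by dividing counts by a size factor of each library (0.695 to 1.36), kept where the mean count was 10 or more.

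The raw counts were tested in R 4.3.3 with edgeR 4.0.16 (TMM, glmQLFit, glmQLFTest, all 9 libraries, group alone) over the same 1769 entries, a filter that left out 0.00134% of the counts. Thresholds were an adjusted p of 0.05 and a log2 fold change of 0.55, as in the study's methods. DESeq2 1.42.0 was an alternative here, and DESeq2 was the study's own test. The edgeR script was tested on simulated data without a replicate effect and with larger changes than those of miR-338. That checks the code and not the calls made here. Exact permutation tests used Python 3.11.15. Replicate numbers pair the libraries by the data, not by the labels: deviations from group means correlated at 0.273 to 0.558 in all 9 same-number pairs and at -0.475 to 0.149 in the 18 others. The entries, lists and tests were chosen with earlier results of these data known. Named are all miR-338 profiles, the 5 most like each arm, and the nervous system list, of which only called profiles, miR-138 and miR-219 were named singly. At a mean of 72.6 to 439 counts, counting error was larger in each group for the 5p profiles than for the 3p profiles. In AA and IGF1 the coefficients of variation of the 5p profiles, 19.9% to 25.2%, exceeded their counting error.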

Additional observations from a re-analysis of the deposited data

How the results depend on the processing

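The calls and log2 fold changes were recomputed with DESeq2, with other composition factors (upper-quartile, RLE or none), without a filter or with one at a mean of 50 counts, on distinct profiles, on 2 groups only, with the replicate block, without the fold threshold, and without each library. The block on distinct profiles and DESeq2 with the block were added after seeing the data. The count of called miR-338 profiles was 0 in each comparison. It became 1 in AA against CTR with the replicate block and with DESeq2 and the block, and 1 in IGF1 against CTR with DESeq2, the replicate block, the block on distinct profiles, and DESeq2 with the block. The cause was not tested. None of the 9 fits without a library called a miR-338 profile. These fits used edgeR with the group alone, which called none with all libraries either. DESeq2 and the replicate block were not refitted without a library, so whether their calls rest on 1 library was not tested. For dre-miR-338-5p the 9 fits gave log2 fold changes of 0.49 to 0.83 in AA (adjusted p 0.0505 to 0.467) and 0.62 to 0.88 in IGF1 (0.0959 to 0.547).

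No 5p profile changed sign against CTR. For IGF1 against CTR, dre-miR-338-3p became -0.012 with upper-quartile factors and -0.0026 with the block on distinct profiles, dre-miR-338 became 0.0042 with the stricter filter and 0.0014 with 2 groups only, and ola-miR-338-3p 0.0051 and 0.0020. For AA against IGF1, dre-miR-338-5p became 0.075 without composition factors, a setting that moved the median of all profiles by 0.20 in AA against CTR and 0.23 in AA against IGF1. Without a library, dre-miR-338-3p, dre-miR-338 and ola-miR-338-3p ran from -0.0058 to 0.33, -0.18 to 0.32 and -0.24 to 0.30 in AA against CTR, from -0.15 to 0.24, -0.28 to 0.16 and -0.25 to 0.15 in IGF1 against CTR, and from -0.092 to 0.24, -0.18 to 0.38 and -0.24 to 0.33 in AA against IGF1, and dre-miR-338-5p from -0.29 to 0.036 in AA against IGF1.

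The log2 arm ratio kept its sign against CTR with pseudocounts of 0 or 5 and with other profiles of either arm, and its difference between AA and IGF1 became 0.13 with ssa-miR-338a-5p as the 5p profile. With ssa-miR-338a-5p the difference between IGF1 and CTR was 0.37 (exact permutation p = 0.1). With dre-miR-338 as the 3p profile it was 0.80 (exact permutation p = 0.2). There the IGF1 and CTR libraries overlapped, so their separation in the ratio depended on the 3p profile used. Without a library the difference in the ratio of dre-miR-338-5p to dre-miR-338-3p ran from 0.51 to 0.94 in IGF1 against CTR, from 0.19 (without AA replicate 2) to 0.83 in AA against CTR, and from -0.55 to 0.087 in AA against IGF1, where its sign changed without AA replicate 1.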
